A study of Mus musculus with 8 samples.

Results

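The 10 imprinted genes followed here act on growth in mammals. They were measured in the soleus, a calf muscle rich in slow fibres, by RNA sequencing of whole muscles: Igf2, H19, Dlk1, Meg3, Rian, Grb10, Cdkn1c, Plagl1, Peg3 and Mest. They were chosen by gene symbol, not by their values. Of these 10 genes, 7 had a row among the 22880 genes counted by the authors, and all 7 were among the 14001 genes that passed a filter on low counts. The non-coding RNAs H19, Meg3 and Rian were not analysed here. The comparison was between 4 control mice (Dnm2 +/+) and 4 heterozygous Dnm2 +/K562E mice, which carry a point mutation in one allele of the dynamin 2 gene. All 8 were male mice on a C57BL/6 background, aged 2 months. Each library came from the soleus of an independent mouse. The allele was placed at the endogenous locus and is not limited to one cell type, and fibres, connective tissue, vessels, nerve and blood cells of one muscle were read together. Reads of the maternal and the paternal allele are summed in these counts, and imprinting itself was not measured.

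An imprinted gene is read mainly from the chromosome of one parent. One parental copy of a control region, not always that of the chromosome read, is marked by DNA methylation in the germ line. Igf2, Dlk1, Mest, Peg3 and Plagl1 are read mainly from the paternal chromosome, whereas Cdkn1c, H19, Meg3 and Rian are read from the maternal one, and Grb10 is maternal in most tissues outside the brain. Several of these genes form a network of growth control that is active in the foetus and is turned down after birth. In skeletal muscle, Igf2 is made by differentiating myoblasts, Cdkn1c accompanies their exit from the cell cycle, and Dlk1, Mest and Peg3 have been linked to satellite cells and regenerating fibres.

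Among the 7 genes, Mest and Peg3 were higher and Cdkn1c was lower in Dnm2 +/K562E soleus, Igf2 was lower by less than the fold change threshold, and Grb10 showed no difference beyond its spread. Mest was 2.54-fold and Peg3 1.55-fold higher, and Cdkn1c was 2.17-fold lower. A gene was called when its adjusted p was under 0.05 and its log2 fold change at least 0.58 in either direction, the thresholds of the study. By this rule 2 of 7 genes were called higher, where 12.9% of all tested genes were, and 1 of 7 was called lower, where 7.85% of all tested genes were. By adjusted p alone, 2 were higher and 3 lower, against 22.2% and 21.7% of all tested genes. The genotypes did not overlap in 2 genes on the higher side and in 2 on the lower side, against 20.6% and 20.5% of all tested genes. The median log2 fold change of the 7 genes was -0.03, beside 0.007 over all tested genes. These shares come from 7 genes only, and the genes moved in different directions.

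The stretches upstream of a start site are shown for Mest (called higher), Igf2 (lower by adjusted p alone, not called) and Grb10 (no change called). Cdkn1c, the gene called lower, has no entry among these sequences. Imprinted genes carry their marks at CpG-rich control elements, which need not lie at the start sites shown. Whether the printed stretches belong to such elements was not examined. They are RefSeq sequences of build GRCm38.p6, 250 bases each, read 5′ to 3′ on the strand of the gene and ending just before a start site, with every CG in capitals.
Mest, chr6:30737800-30738049, plus strand: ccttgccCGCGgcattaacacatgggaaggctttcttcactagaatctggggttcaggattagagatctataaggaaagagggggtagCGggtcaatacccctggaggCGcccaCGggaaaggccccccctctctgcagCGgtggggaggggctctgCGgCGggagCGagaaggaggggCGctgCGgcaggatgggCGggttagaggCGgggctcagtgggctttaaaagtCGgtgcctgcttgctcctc
Igf2, chr7:142657497-142657746, minus strand: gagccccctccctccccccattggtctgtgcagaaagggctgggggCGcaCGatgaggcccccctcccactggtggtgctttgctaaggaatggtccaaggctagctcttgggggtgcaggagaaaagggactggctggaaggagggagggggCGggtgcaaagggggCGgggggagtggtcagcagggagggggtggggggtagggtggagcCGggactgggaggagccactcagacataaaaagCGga
Grb10, chr11:12037421-12037670, minus strand: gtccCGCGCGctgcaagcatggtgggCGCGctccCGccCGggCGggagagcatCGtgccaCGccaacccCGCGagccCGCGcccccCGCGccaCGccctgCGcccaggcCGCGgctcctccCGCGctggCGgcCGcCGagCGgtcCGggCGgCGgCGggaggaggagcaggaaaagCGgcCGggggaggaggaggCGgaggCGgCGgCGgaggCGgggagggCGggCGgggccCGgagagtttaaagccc
The Mest stretch holds 14 CG, the Igf2 stretch 6 and the Grb10 stretch 40, where the median over 32851 such stretches of 27025 genes was 6 (quartiles 2 and 16). The Grb10 stretch lies at percentile 98.7 and that of Mest at percentile 70.6. Igf2, Grb10 and Mest each have further start sites in RefSeq, with 1, 10 and 22 CG upstream of the others of Igf2, 8 for the other of Grb10, and 7 and 14 for the others of Mest, so the order of the genes depends on the start site taken. Those printed were picked because they overlap no annotated exon, and where several stretches of a gene do so, the one richest in CG is shown. Methylation was not measured, and these counts describe the sequences alone.

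Plagl1 encodes a zinc finger factor known to bind the palindrome GGGGCCCC and to act on other genes of this network, so those letters were searched on both strands in the 250 bases upstream of each start site. They were found in 1 of 12 stretches from the 6 genes with an entry (Cdkn1c has none) and in 0.889% of all 32851 stretches. The match lies 201 bases upstream of a start site of Peg3. The stretch of 250 bases that holds it overlaps annotated exons of Peg3, Usp29 and Gm27675 over 104 bases. Usp29 starts at 6730578 on the opposite strand, so the match also lies within the Usp29 gene. It is printed with the motif in capitals.
Peg3, chr7:6730602-6730631, minus strand: gactctgcttgGGGGCCCCtaacactgact
The muscle E-box CAGCTG, which does not overlap that motif, was in 1 of the 12 stretches, another one of Mest, and in 13% of all stretches. The letters TATAAA were in 0 of 12 and in 12.4% of all. A match is a run of letters and not a measured binding site.

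Mest and Igf2 also carry microRNAs in introns. The mature sequences are printed with the seed, bases 2 to 8, in capitals.
miR-335-5p, in Mest, chr6:30741314-30741336, plus strand: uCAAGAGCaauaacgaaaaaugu
miR-335-3p, in Mest, chr6:30741354-30741375, plus strand: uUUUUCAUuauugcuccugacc
miR-483-5p, in Igf2, chr7:142654968-142654989, minus strand: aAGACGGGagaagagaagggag
miR-483-3p, in Igf2, chr7:142654932-142654952, minus strand: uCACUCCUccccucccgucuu
The 4 seeds differ from each other. Mature microRNAs were not counted in these libraries, and the values of Mest and Igf2 below are those of the host genes.

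Levels are given as normalized CPM, that is counts scaled to a common library size after scaling with TMM factors (trimmed mean of M-values, edgeR). Igf2 (chromosome 7, minus strand, 142650766 to 142666816) encodes insulin-like growth factor 2, a growth factor of foetal tissues and of differentiating myoblasts. It was at 44.7, 56.0, 57.7 and 47.5 normalized CPM in controls 1 to 4 and at 30.7, 37.7, 40.3 and 32.1 in Dnm2 +/K562E mice 1 to 4. All 4 Dnm2 +/K562E mice lay below the lowest control. The mean fell from 51.5 ± 6.36 to 35.2 ± 4.54 (SD, n = 4 each), a log2 fold change of -0.55 (SE 0.11, adjusted p = 0.00211, edgeR quasi-likelihood test). This is 1.46-fold lower and misses the threshold of 0.58. In whole muscle, fewer cells that make a transcript and less of it per cell cannot be told apart, here and for every gene that follows. By exon length, 62.8% of Igf2 is shared with Gm49394, a protein-coding model on the same strand that is not among the counted genes.

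Dlk1 (chromosome 12, plus strand, 109452823 to 109463336) encodes a membrane protein of the Notch ligand type that holds precursor cells undifferentiated. It had 5, 9, 21 and 7 counts in controls 1 to 4 and 17, 56, 13 and 17 in Dnm2 +/K562E mice 1 to 4. In normalized CPM these were 0.149, 0.267, 0.470 and 0.206 against 0.462, 1.30, 0.310 and 0.459. Only Dnm2 +/K562E mouse 2 lay above every control, and the genotypes overlapped. The log2 fold change was 1.18 (SE 0.53, adjusted p = 0.0956), and 0.54 without that mouse (adjusted p = 0.395). Dlk1 passed the filter on low counts through the Dnm2 +/K562E mice, and at this depth a difference was not detectable beyond the spread between mice.

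Grb10 (chromosome 11, minus strand, 11930508 to 12038683) encodes an adaptor that binds the insulin and IGF receptors and restrains their signal. Its values were 112, 138, 143 and 121 normalized CPM in controls 1 to 4 and 142, 123, 114 and 125 in Dnm2 +/K562E mice 1 to 4. The groups overlapped over almost their whole range. The means were 129 ± 14.4 and 126 ± 11.9 (SD, n = 4 each), with a log2 fold change of -0.03 (SE 0.09, adjusted p = 0.825). The sign of this value turned to 0.19 (adjusted p = 0.123) with library sizes alone as scaling, where the median of all genes was itself moved to 0.22.

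Cdkn1c (chromosome 7, minus strand, 143458339 to 143461050) encodes p57, a cyclin-dependent kinase inhibitor that holds cells out of the cell cycle, and lies in the same cluster of chromosome 7 as Igf2. Controls 1 to 4 had 17.9, 23.7, 31 and 25.1 normalized CPM, and Dnm2 +/K562E mice 1 to 4 had 8.66, 11.6, 13.5 and 11.4. The highest Dnm2 +/K562E mouse lay below the lowest control. The mean fell from 24.5 ± 5.38 to 11.3 ± 1.97 (SD, n = 4 each), with a log2 fold change of -1.12 (SE 0.17, adjusted p = 0.00034). An antisense model, Gm44732, covers 30.7% of the Cdkn1c exons and is not among the counted genes. The sources used here do not say whether the counting used the strand, so reads of the antisense model could be included.

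Plagl1 (chromosome 10, plus strand, 13060504 to 13131694) stood at 4.44, 5.08, 7.41 and 7.74 normalized CPM in controls 1 to 4. In Dnm2 +/K562E mice 1 to 4 it stood at 3.99, 4.18, 5.06 and 4.13. Mice 1, 2 and 4 of the Dnm2 +/K562E group lay below every control, mouse 3 lay between controls 1 and 2, and the controls fell into a lower and a higher pair. The log2 fold change was -0.51 (SE 0.19, adjusted p = 0.0498), at the edge of the adjusted p threshold and short of the fold change threshold. Leaving out control 3, control 4 or any of Dnm2 +/K562E mice 1, 2 and 4 took the adjusted p to between 0.0994 and 0.133, and library size scaling took it to 0.224.

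Peg3 (chromosome 7, minus strand, 6703892 to 6730431) encodes a large zinc finger protein with roles in the stress response of cells and in muscle stem cells. It was at 46.1, 33.9, 29.8 and 43.3 normalized CPM in controls 1 to 4 and at 56.2, 63.0, 61.2 and 57.3 in Dnm2 +/K562E mice 1 to 4. Every Dnm2 +/K562E mouse lay above every control, and the controls were the more scattered group, with a coefficient of variation of 20.1% against 5.37%. The mean rose from 38.3 ± 7.70 to 59.4 ± 3.19 (SD, n = 4 each), with a log2 fold change of 0.64 (SE 0.12, adjusted p = 0.00188). Without control 2 or without control 3 the log2 fold change was 0.58 and 0.53, both short of the fold change threshold before rounding, at adjusted p = 0.00715 and 0.00294.

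Mest (chromosome 6, plus strand, 30723547 to 30748465) encodes an enzyme of the alpha/beta-hydrolase family that is associated with the growth of fat and mesodermal tissue. It had the largest log2 fold change of the 7 genes. Controls 1 to 4 were tightly grouped at 11.6, 11, 10.5 and 12.5 normalized CPM. The Dnm2 +/K562E mice 1 to 4 were at 36.2, 23.5, 27.5 and 28.9, all above the controls and most of all mouse 1. The mean rose from 11.4 ± 0.863 to 29.0 ± 5.33 (SD, n = 4 each), with a log2 fold change of 1.35 (SE 0.12, adjusted p = 1.32e-05). Of the Mest exons, 23.1% (912 bases) overlap exons of Copg2 on the opposite strand, and the authors counted a read for each gene it overlapped. Copg2, a coat protein of transport vesicles, rose from 18.5 ± 1.42 to 26.1 ± 0.963 normalized CPM (SD, n = 4 each, log2 fold change 0.50, adjusted p = 0.000315). The part of shared reads in either value was not tested.

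**Figure D1:**
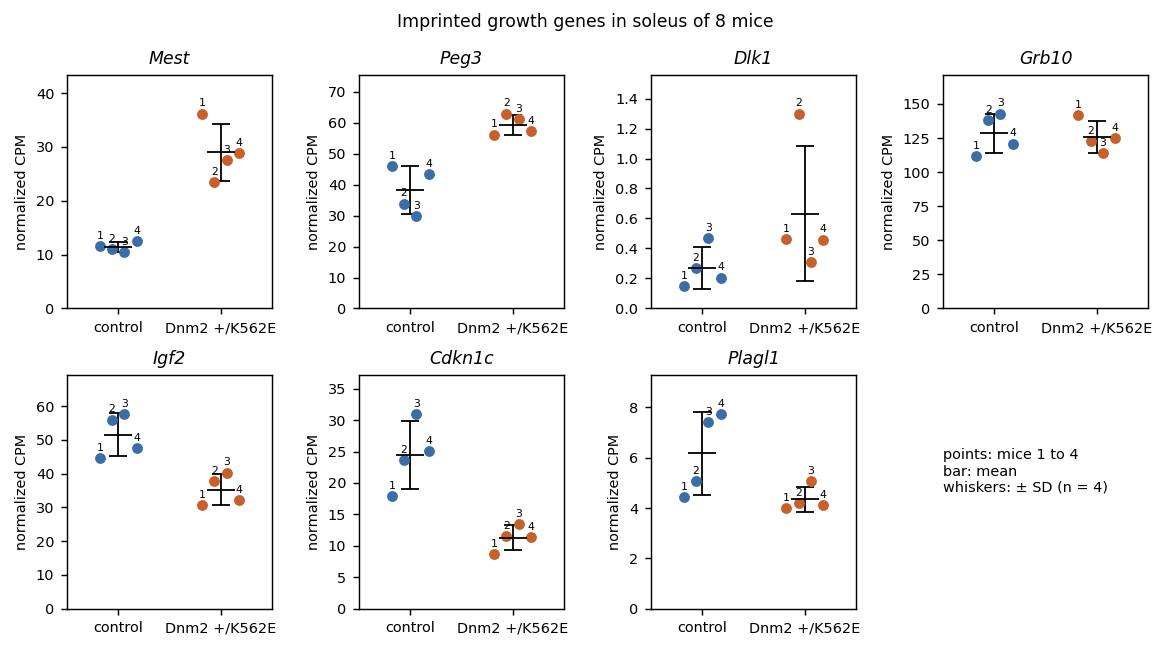
Normalized CPM of the 7 imprinted growth genes in each of the 8 mice (points, numbered by mouse, blue for control and orange for Dnm2 +/K562E), with the mean (bar) and SD (whiskers, n = 4). Mest and Peg3 lay higher and Igf2 and Cdkn1c lower in Dnm2 +/K562E mice without overlap, whereas Dlk1, Grb10 and Plagl1 overlapped.

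Levels were compared between genes only after division by exon length, as normalized CPM per kilobase. In controls the order was Grb10 with a level of 14.1, Cdkn1c with 12, Igf2 with 9.0, Mest with 2.89, Peg3 with 2.87, Plagl1 with 0.789 and Dlk1 with 0.0483. Mest and Peg3 were neighbours that did not differ beyond their spread in controls. In Dnm2 +/K562E mice the levels per kilobase were 13.9 for Grb10, 7.36 for Mest, 6.15 for Igf2, 5.52 for Cdkn1c, 4.46 for Peg3, 0.555 for Plagl1 and 0.112 for Dlk1. Mest thus rose above the level of Peg3 while Igf2 and Cdkn1c fell, and Mest, Igf2 and Cdkn1c lay close together in Dnm2 +/K562E mice. The Mest level there was still below the control levels of Igf2 and Cdkn1c.

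Within the controls, the genes did not vary alike. Control 1 was the lowest of its group for Igf2, Cdkn1c, Plagl1, Grb10 and Dlk1 and the highest for Peg3, and control 3 was the lowest for Peg3 and Mest and the highest for Igf2, Cdkn1c, Grb10 and Dlk1. Within the Dnm2 +/K562E group, mouse 1 was the highest for Mest and Grb10 and the lowest for Igf2, Cdkn1c, Plagl1 and Peg3. These orders rest on 4 mice each and were noticed after the values were seen.

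The alternatives of processing moved most genes little. Mest, Peg3, Igf2 and Cdkn1c kept an adjusted p under 0.05 and their direction in all 16 alternative fits of each. Their log2 fold changes ran from 1.22 to 1.56 for Mest, from 0.53 to 0.84 for Peg3, from -0.62 to -0.34 for Igf2 and from -1.25 to -0.91 for Cdkn1c. Plagl1 kept an adjusted p under 0.05 in 7 of 16 fits, and Dlk1 did not reach it in any of 15.

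**Figure D2:**
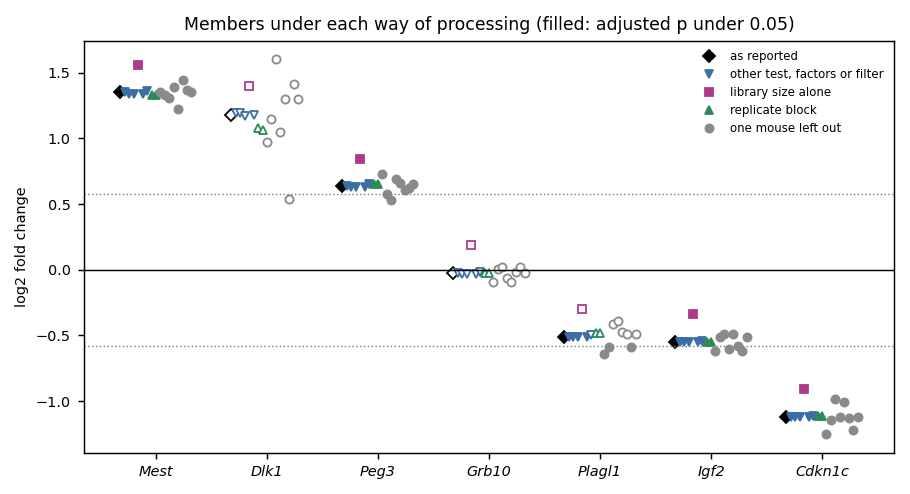
Log2 fold change (Dnm2 +/K562E against control, vertical axis) of the 7 genes as reported (diamonds) and under each alternative test, scaling, filter, replicate block and left-out mouse. Filled symbols have an adjusted p under 0.05, dotted lines mark 0.58 in either direction, and squares show scaling by library size alone, which shifted every gene upwards.

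Igf2 signals through receptors that insulin and Igf1 also use, and is cleared by Igf2r, a scavenger receptor that is itself imprinted. Of 9 genes of this group (ligand, receptors, receptor substrates and Igf2 mRNA-binding proteins), 7 were tested. Of these 3 were called higher and 0 lower, beside 12.9% and 7.85% of all tested genes. By adjusted p alone 4 were higher and 1 lower, beside 22.2% and 21.7% of all tested genes. The 7 had a median log2 fold change of 0.53. Igf2r was at 111, 122, 125 and 121 normalized CPM in controls 1 to 4 and at 208, 181, 186 and 203 in Dnm2 +/K562E mice 1 to 4. Without overlap, it rose 1.62-fold (log2 fold change 0.70, SE 0.07, adjusted p = 1.54e-05). Igf2bp2, which binds Igf2 mRNA, rose from 3.22 ± 1.31 to 8.12 ± 1.03 normalized CPM (SD, n = 4 each, log2 fold change 1.33, adjusted p = 0.000987). Igf1, the related ligand, rose from 43.0 ± 13.3 to 71.1 ± 14.4 (log2 fold change 0.73, adjusted p = 0.0126), with control 4 at 61.7 overlapping Dnm2 +/K562E mouse 2 at 61.3. The insulin receptor Insr fell from 120 ± 3.84 to 82.1 ± 3.65 (log2 fold change -0.55, adjusted p = 2.55e-05), again without overlap and short of the fold change threshold.

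The ratio of the 2 imprinted partners within each library does not depend on scaling between libraries. Igf2r counts per Igf2 count were 2.48, 2.17, 2.17 and 2.54 in controls 1 to 4 and 6.79, 4.79, 4.61 and 6.33 in Dnm2 +/K562E mice 1 to 4. The lowest Dnm2 +/K562E value was well above the highest control. The means were 2.34 ± 0.198 and 5.63 ± 1.09 (SD, n = 4 each). The ratio was chosen after Igf2r was seen to be higher and Igf2 lower, so it is a description and was not tested.

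Cdkn1c was set beside the other cyclin-dependent kinase inhibitors. Of 6 such genes 5 were tested, and 0 were called in either direction. Over all tested genes 12.9% were called higher and 7.85% lower, and 22.2% and 21.7% by adjusted p alone. The 5 had a median log2 fold change of 0.10. By edgeR's adjusted p alone 0 of 5 passed, as did 0 at an unadjusted p under 0.05 and 0 by adjusted p with DESeq2 and with the exact test of edgeR (1 at its unadjusted p). With 5 other settings 1 gene passed by adjusted p: library size alone, no filter on low counts, the block by description number, without control 1 and without Dnm2 +/K562E mouse 2. With no filter on low counts all 6 were tested, among them Cdkn2a, which the filter otherwise removed. Cdkn2a had 2, 1, 0 and 0 counts in controls 1 to 4 and 13, 10, 9 and 9 in Dnm2 +/K562E mice 1 to 4. Its genotypes did not overlap, at very few counts, and it was the gene that passed by adjusted p with no filter. Cdkn1a, which encodes p21, was at 33.6, 87.5, 109 and 94.3 normalized CPM in controls 1 to 4 and at 49.2, 44.8, 52.6 and 66.6 in Dnm2 +/K562E mice 1 to 4. Control 1 lay below every Dnm2 +/K562E mouse and the other three controls above them. The log2 fold change of Cdkn1a was -0.61 (SE 0.28, adjusted p = 0.105), and -0.87 without control 1 (adjusted p = 0.000212), where the other 15 alternatives gave 0.0729 to 0.267. Cdkn1b, which encodes p27, had a log2 fold change of -0.26 (SE 0.13, adjusted p = 0.137). It passed with the block by description number (-0.27, adjusted p = 0.0312) and without Dnm2 +/K562E mouse 2 (-0.38, adjusted p = 0.031). Cdkn2d passed with library size alone (0.40, adjusted p = 0.0155). Whether Cdkn1c differed from these relatives in its change was not tested.

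The imprinted domains hold other genes, some imprinted and some not. Of 34 neighbours listed, 31 had a row and 22 were tested. Among these 4 were called higher and 2 lower, beside 12.9% and 7.85% of all tested genes, their median log2 fold change was 0.13, and 12 did not pass the adjusted p threshold. On chromosome 7 beside Igf2, Lsp1, a protein of leukocytes, rose from 45.3 ± 5.70 to 103 ± 16 normalized CPM (log2 fold change 1.19, adjusted p = 2.47e-05). Its neighbours Mrpl23, a protein of the mitochondrial ribosome, and Tnnt3, the fast troponin T, both fell at a log2 fold change of -0.69 each (adjusted p = 2.48e-05 and 0.000199). At this locus the genes named thus had values of both signs.

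At the Dlk1 domain on chromosome 12, Begain, a postsynaptic scaffold partner, was at 0.953, 0.832, 0.761 and 0.883 normalized CPM in controls 1 to 4 and at 2.72, 2.09, 2.27 and 2.46 in Dnm2 +/K562E mice 1 to 4. All Dnm2 +/K562E mice lay above all controls, at a low level (log2 fold change 1.47, SE 0.20, adjusted p = 0.000163). Zim1, the tested neighbour of Peg3, lay between 3.00 and 3.50 in the controls, between 3.48 and 3.78 in the Dnm2 +/K562E mice, and was not called. Zim1 is named here after its values were seen.

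**Figure D3:**
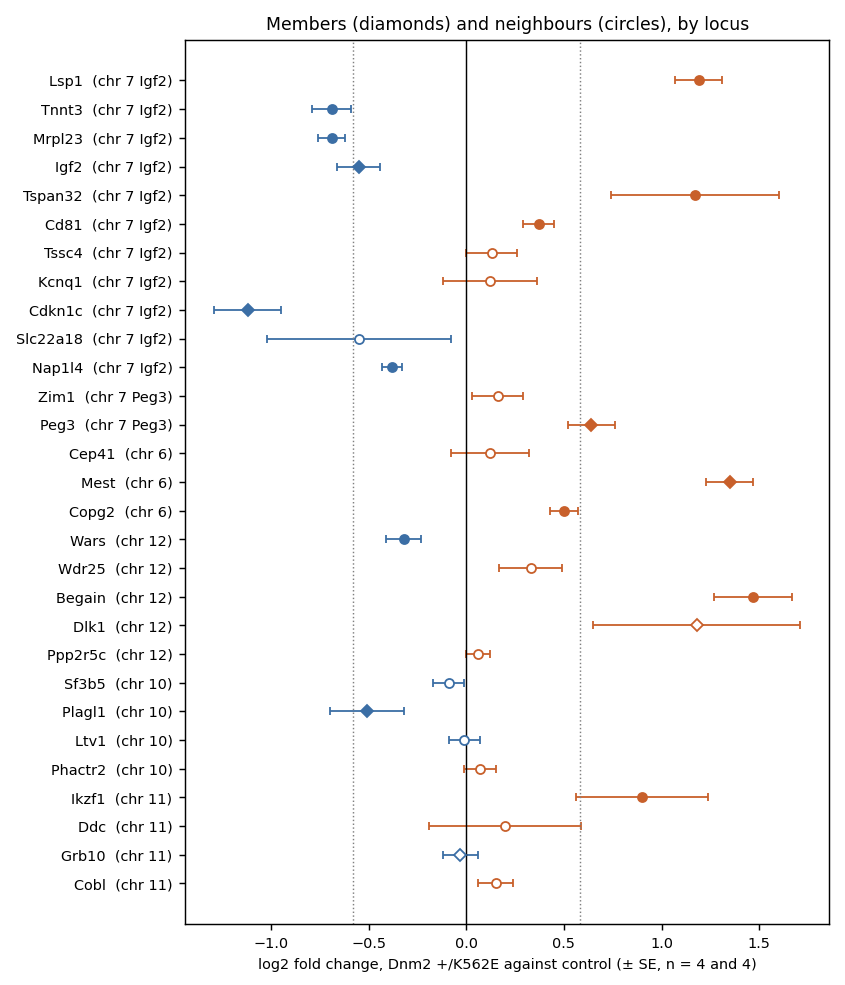
Log2 fold change (Dnm2 +/K562E against control, horizontal axis, whiskers SE, n = 4 and 4) of the 7 genes (diamonds) and their 22 tested neighbours (circles), grouped by locus. Filled symbols have an adjusted p under 0.05, orange is higher and blue lower, and dotted lines mark 0.58 in either direction. Higher and lower genes lie side by side at the Igf2 and Cdkn1c locus.

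Other imprinted genes outside these domains were counted in the same way. Of 29 listed, 27 had a row and 22 were tested. Of these 3 were called higher and 3 lower, beside 12.9% and 7.85% of all tested genes, and by adjusted p alone 7 were higher and 8 lower, beside 22.2% and 21.7%, with a median log2 fold change of 0.18. Slc38a4, a paternally expressed amino acid transporter, was at 34.8, 51.7, 50.4 and 68.4 normalized CPM in controls 1 to 4 and at 11.5, 10.9, 12.3 and 9.95 in Dnm2 +/K562E mice 1 to 4. It was 4.59-fold lower (log2 fold change -2.20, SE 0.17, adjusted p = 4.42e-06), and every Dnm2 +/K562E mouse lay far below the lowest control. Asb4, a substrate adaptor of ubiquitin ligases, fell from 10.6 ± 0.841 to 4.39 ± 0.259 (SD, n = 4 each, log2 fold change -1.27, adjusted p = 5.89e-06). Calcr, the calcitonin receptor, was at 1.70, 1.96, 2.37 and 2.53 in controls 1 to 4 and at 0.353, 0.0697, 0.262 and 0.0811 in Dnm2 +/K562E mice 1 to 4 (log2 fold change -3.47, SE 0.43, adjusted p = 8.96e-05). Its counts were 57, 66, 106 and 86 in controls 1 to 4 and 13, 3, 11 and 3 in Dnm2 +/K562E mice 1 to 4. Calcr passed the filter on low counts through the controls, and gave no value with at least 10 counts in every mouse. Calcr is also a marker of quiescent satellite cells and is counted in that list too. Besides Igf2r, the genes called higher were Peg10 (log2 fold change 1.22) and Ndn (log2 fold change 0.94), both paternally expressed and named here after their values were seen.

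**Figure D4:**
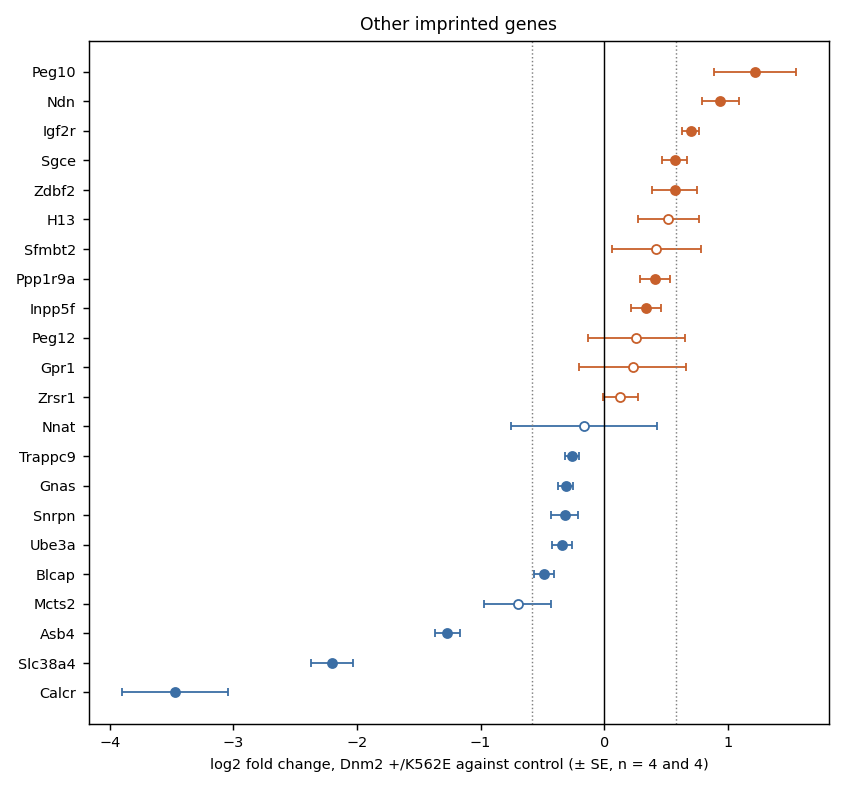
Log2 fold change (Dnm2 +/K562E against control, horizontal axis, whiskers SE, n = 4 and 4) of the 22 other imprinted genes tested. Filled points have an adjusted p under 0.05 and dotted lines mark 0.58 in either direction. Calcr, Slc38a4 and Asb4 stand at the lower end and Peg10, Ndn and Igf2r at the upper end.

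Genes that set or keep imprints were measured as well. Of 15 such genes (DNA methyltransferases and demethylases, zinc finger and Polycomb factors, Ctcf) 14 were tested. Of these 0 were called higher and 1 lower, beside 12.9% and 7.85% of all tested genes. By adjusted p alone 1 was higher and 3 were lower, beside 22.2% and 21.7% of all tested genes. The 14 had a median log2 fold change of -0.20, and 10 did not pass the adjusted p threshold. The de novo DNA methyltransferase Dnmt3a was at 95.1, 97.4, 93.5 and 83.4 normalized CPM in controls 1 to 4 and at 57.5, 57.5, 57.5 and 59.9 in Dnm2 +/K562E mice 1 to 4. It fell 1.59-fold without overlap (log2 fold change -0.67, SE 0.06, adjusted p = 1.37e-05). Dnmt1, which copies methylation after replication, rose by 0.36 on the log2 scale (adjusted p = 0.0127). Ctcf, which insulates Igf2 from enhancers on the maternal allele, and Suz12 of the Polycomb complex had log2 fold changes of -0.21 and -0.19 (adjusted p = 0.0167 and 0.037). Suz12 kept an adjusted p under 0.05 in 4 of 16 alternatives only (0.067 with the exact test), and Ctcf in 14 of 16, missing it with the block by title number (0.0576) and with library size alone. With library size alone both of these small values turned positive, to 0.00446 for Ctcf and 0.0253 for Suz12.

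Markers of the cells that can hold these transcripts moved with genotype. The counts below stand beside 12.9% of all tested genes called higher and 7.85% called lower. All 10 markers of slow and fast myofibres were present in every mouse. Their summed level was 68700 to 76500 normalized CPM in controls and 41900 to 47700 in Dnm2 +/K562E mice. Of these markers 0 were called higher and 6 lower, and 9 were lower by adjusted p alone, beside 21.7% of all tested genes. Of 8 markers of regenerating or immature fibres 5 were called higher and 0 lower. Their summed level was 72.8 to 84.4 in controls and 595 to 878 in Dnm2 +/K562E mice. For satellite cells, 0 of 6 markers were called higher and 3 lower (Pax7, Myf5 and Calcr), with sums of 84.1 to 118 and 65.8 to 97.5. Cdh15, Vcam1 and Sdc4 did not pass the adjusted p threshold (log2 fold change 0.08, -0.40 and -0.29, adjusted p = 0.497, 0.13 and 0.363). The sums came mostly from Sdc4 and Cdh15 (means 59.5 and 21.4 in controls, 48.7 and 22.6 in Dnm2 +/K562E mice). Pax7, the defining factor of these cells, had a log2 fold change of -2.03 (SE 0.31, adjusted p = 0.000367).

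Most markers of connective tissue and all those of macrophages were called higher, where 12.9% of all tested genes were called higher and 7.85% lower. For fibro-adipogenic cells 7 of 8 markers were called higher and 0 lower (Ly6a was at -0.19 on the log2 scale, adjusted p = 0.0332), with sums of 2150 to 3430 in controls and 3990 to 5110 in Dnm2 +/K562E mice. For tendon these numbers were 5 of 6 and 0, with sums of 327 to 737 and 933 to 1290 (Chad was at -0.04 on the log2 scale, adjusted p = 0.935). For macrophages they were 6 of 6 and 0, with sums of 68.1 to 125 and 146 to 246. Endothelial markers were called higher in 0 and lower in 1 of 5 genes, with sums of 862 to 900 and 616 to 705. By adjusted p alone 5 of 5 endothelial markers were lower, beside 21.7% of all tested genes. All 5 were lower without overlap between genotypes, beside 20.5% of all tested genes. Blood markers were called higher in 0 and lower in 4 of 4, with sums of 496 to 845 and 234 to 488. Schwann cell markers (0 of 5 called, sums 158 to 178 and 132 to 165) and adipocyte markers (0 of 4 called, sums 78.4 to 422 and 131 to 233) were not called. By adjusted p alone 1 Schwann cell marker was lower, Mbp (log2 fold change -0.24, adjusted p = 0.0141), without overlap between genotypes. No marker of these 10 lists was at 0 in all mice. The part of these cells in the changes of Mest, Peg3, Igf2 and Cdkn1c was not tested.

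The libraries held 35412828 to 48832814 counts in controls and 33407430 to 39460486 in Dnm2 +/K562E mice. The TMM factors were lower in every control (0.9145 to 0.9594) than in every Dnm2 +/K562E mouse (1.037 to 1.103), so that scaling and genotype go together. Dnm2, the mutated gene, had a mean of 66.3 ± 4.74 normalized CPM in controls and 73.4 ± 2.43 in Dnm2 +/K562E mice (log2 fold change 0.15, SE 0.07, adjusted p = 0.0909), and since the allele is a point mutation its total level does not check the labels. Control 3, at 59.2, stood apart from the other three controls in Dnm2.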

How the data were processed

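RNA of soleus muscles from 4 control and 4 Dnm2 +/K562E mice was sequenced. Per the labels and the study's methods, the authors trimmed reads with Trimmomatic 0.33, aligned them to GRCm38.p5 with STAR 2.5.1b and counted them per Ensembl gene with featureCounts, assigning a read to every gene it overlapped. They deposited unnormalized counts for each mouse. The strand setting was not given in the sources used here. The labels name a stranded total RNA kit, and the methods describe poly A enrichment.

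Symbols and positions came from GENCODE M21 (GRCm38), which matched 22647 of 22880 gene IDs. Genes were filtered with filterByExpr (minimum count 10, minimum total 15), scaled by TMM and tested with the quasi-likelihood F-test of edgeR 4.0.16 in R 4.3.3, with Benjamini-Hochberg adjustment over all 14001 tested genes. The SE was derived from the F statistic. On simulated data in which 199 of 13870 genes had a log2 fold change of 1.5 in either direction, 93% of these were recovered and 7 of 192 calls were false. That change is larger than those of the 7 genes, and a smaller share of genes was changed than was called in the data. Recovery of changes as small as those of Igf2, Plagl1 or Peg3 was not tested. No pair of mice of one genotype was alike within sampling noise (chi-square per degree of freedom of at least 13 over 12 pairs). Alternatives were the exact test, library size alone, median-ratio factors, DESeq2 1.42.0, other filters, 2 replicate blocks, no fold change threshold and leaving out each mouse.

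Named besides the 7 genes and Dnm2 were up to 4 genes with the smallest p per list and genes sharing exons with a member. Zim1, Peg10, Ndn, Ly6a, Chad, Cdkn2a, Nnat, Mcts2, H13, Myh8, Mymk, Mymx, Cdh15 and Sdc4 were named outside this rule after their values were seen. The genes and lists were chosen with earlier results of these data known. Sequences are from RefSeq (GRCm38.p6). Planned ratios with H19, Meg3 and Rian were not analysed here.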

Additional observations from a re-analysis of the deposited data

Results flagged for a closer look

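In 41 named genes, each with 2 groups of 4 mice, a single mouse stood apart from the other three of its group in 6 of 82 groups (gap over range above Dixon's critical value for 4 mice, which chance passes in about 1 group in 20). Dlk1 in Dnm2 +/K562E mouse 2 was at 1.30 normalized CPM, against 0.310 to 0.462 in the rest of its group. Copg2, which shares exons with Mest, was at 27.5 in Dnm2 +/K562E mouse 1, the mouse with the highest Mest. Dnmt3a was at 59.9 in Dnm2 +/K562E mouse 4, against 57.5 in each of the others, a small gap in a very tight group. Tnnt3 was at 5410 in the same mouse, against 4070 to 4200. Control 3 stood apart with Dnm2 at 59.2 and with the immature fibre marker Myl4 at 10.5.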

How the results depend on the processing

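Of the 7 genes, 2 were called higher and 1 lower, and leaving out each mouse gave 1 to 2 higher and 1 to 3 lower genes. Only 1 was higher without control 2 or control 3. The lower genes were 3 without control 1 or Dnm2 +/K562E mouse 3 and 2 without control 2, control 4 or Dnm2 +/K562E mouse 2. Without the fold change threshold 2 were higher and 3 lower. Over all tested genes 1806 were higher and 1099 lower. Library size alone gave 2865 and 564, no fold change threshold 3103 and 3036, and leaving out each mouse 1588 to 1970 and 1026 to 1208. With the replicate block by title number the counts were 1637 and 1036, and with that by description number 1739 and 1083. Same-numbered mice were different animals. Their deviations had a mean correlation of -0.145 by title (-0.251 to 0.00573) and -0.0325 by description (-0.188 to 0.228). So few pairs cannot show whether same-numbered mice shared a litter or a batch. Under the blocks, Plagl1 went to adjusted p = 0.0592 and 0.0873, and no other of the 7 genes changed its side of the threshold. Grb10 reversed to 0.19 with library size alone, and over the left-out mice ran from -0.0966 to 0.0233, with 0.00405 without control 2, 0.0233 without control 3 and 0.0171 without Dnm2 +/K562E mouse 3. Ctcf reversed to 0.00446 and Suz12 to 0.0253 with library size alone. The cause was not tested. Ratios of H19 to Igf2, Meg3 to Dlk1 and Rian to Meg3 and their alternatives were not run, and Dlk1 gave no value with at least 10 counts in every mouse. Dlk1 had 5 to 56 counts per mouse, so depth limits it as well as the spread between mice.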

Other observations

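Nnat, an imprinted gene on chromosome 2, had the highest coefficient of variation in controls (77.7%) among the 22 other imprinted genes tested. It was at 9.21, 30.9, 3.72 and 33.1 normalized CPM in controls 1 to 4 and at 25.6, 17.9, 6.44 and 18.9 in Dnm2 +/K562E mice 1 to 4. The summed adipocyte markers of the same mice were 163, 298, 78.4 and 422 in controls and 233, 214, 131 and 189 in Dnm2 +/K562E mice. In both groups mouse 3 was the lowest for Nnat and for the adipocyte markers. The log2 fold change of Nnat was -0.16 (SE 0.59, adjusted p = 0.849).

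Mcts2 is an imprinted retrogene that lies inside an intron of H13, and the 2 genes are linked by allele-specific use of polyadenylation sites. Counts of Mcts2 per count of H13 were 0.239, 0.165, 1.07 and 0.158 in controls 1 to 4 and 0.133, 0.0921, 0.116 and 0.153 in Dnm2 +/K562E mice 1 to 4. Control 3, with 755 counts of Mcts2 and 703 of H13, had more of the first and fewer of the second than any other mouse. Without control 3, the log2 fold change of H13 was 0.27 (adjusted p = 0.0217), against 0.52 (adjusted p = 0.112) with it.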
